A study of Homo sapiens with 14 samples.

Results

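The polyamine set comprised 9 genes, taken by symbol out of 62703 genes in the count table. They were the biosynthetic genes ODC1, AMD1, SRM and SMS, the catabolic genes SAT1, SMOX and PAOX, and the regulators OAZ1 and AZIN1. The set was chosen by the measured SAT1 response, since earlier results of these data had shown its level to be higher in treated LNCaP cells and to respond less in 22Rv1 cells. The SAT1 responses in both lines and the difference between them are therefore given as a description with no test, and so are the LNCaP responses of the other members. The SAT1 difference between untreated LNCaP and untreated 22Rv1 uses the same DMSO libraries, and it is given with no test as well. Counts of members that passed in LNCaP or in the difference between the lines are printed, but nothing is read from them. In counts of members for 22Rv1 or for the untreated lines, nothing is read from the place of SAT1.

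RNA was measured in LNCaP, 22Rv1 and PC3, all lines of prostate cancer cells. They received 1.5 µM SEL120-34A, an inhibitor of the kinases CDK8 and CDK19, or the vehicle dimethylsulfoxide (DMSO) alone, and were collected after 3 days. LNCaP cells are sensitive to the drug enzalutamide and 22Rv1 cells are resistant to it. LNCaP and 22Rv1 had 3 libraries in each arm, and PC3 had 1 library in each arm. The labels number the replicates without saying whether they were separate cultures. The study's methods state in general that experiments had 3 or more biological replicates unless noted, without naming these libraries. P-values measure only the spread between these libraries, which may be technical. Each line stands for 1 cell line grown in culture, so that a difference between lines cannot be told apart from any other way in which those lines differ.

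Libraries were made from the 3′ ends of transcripts (BRB-seq) and held between 246063 and 909176 counts. A gene with no counts in a library could have been present at up to 3.27 to 12.9 CPM (counts scaled to library size), taking 3 counts as the limit. Intervals and limits of this kind cover counting error only. Library sizes were adjusted by the trimmed mean of M values (TMM), and all levels below are on that scale. A set of 4 luminal prostate markers (KLK3, KLK2, HOXB13 and SLC45A3) summed to between 854 and 2236 CPM in LNCaP, between 203 and 313 CPM in 22Rv1 and between 59.6 and 87.1 CPM in PC3. The 22Rv1 sum was mostly HOXB13 (145 to 236 CPM). KLK3 in 22Rv1 (8.58 to 31.8 CPM) overlapped PC3 (7.62 to 10.5 CPM), while KLK2, HOXB13 and SLC45A3 were higher in every 22Rv1 library than in PC3. The 5 PC3 markers CAV1, VIM, CD44, AXL and LGALS1 summed to 3071 and 3167 CPM in PC3, against at most 64.3 CPM in LNCaP and 108.5 CPM in 22Rv1.

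Polyamines are small, positively charged molecules that bind nucleic acids and that dividing cells need. Ornithine decarboxylase (ODC1) makes putrescine, S-adenosylmethionine decarboxylase (AMD1) supplies aminopropyl groups, and spermidine synthase (SRM) and spermine synthase (SMS) add those groups in turn. SAT1 acetylates spermidine and spermine, after which they are exported or oxidized by PAOX, while SMOX oxidizes spermine directly. Antizyme (OAZ1) binds ODC1 and sends it to the proteasome, and antizyme inhibitor (AZIN1) takes antizyme away from ODC1. The prostate gland is known for a very high polyamine output.

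SAT1 (ENSG00000130066.17) lies on the plus strand of the X chromosome, from 23783173 to 23786210 in GRCh38, and SMS lies on the same chromosome from 21940709 to 21994837. GENCODE release 44 lists 8 transcripts of SAT1, of which 2 are coding, 1 is subject to nonsense-mediated decay and 5 retain an intron. Tags from 3′ ends were summed over all transcripts of a gene, so that these forms could not be separated. The sequences upstream of 3 members are shown because they set SAT1, the member that stood apart, beside ODC1 and SRM, whose mean levels were lower with SEL120-34A in both LNCaP and 22Rv1. Each is the 250 bases before the transcription start in RefSeq (GRCh38.p14), written 5′ to 3′ on the strand of the gene. Capitals mark matches, on either strand, to an E-box, a CCAAT box and a GC box. The E-box was searched as CACGTG. The CCAAT box was searched by those letters alone. The GC box was searched as GGGCGG.
SAT1, chrX:23782923-23783172, plus strand: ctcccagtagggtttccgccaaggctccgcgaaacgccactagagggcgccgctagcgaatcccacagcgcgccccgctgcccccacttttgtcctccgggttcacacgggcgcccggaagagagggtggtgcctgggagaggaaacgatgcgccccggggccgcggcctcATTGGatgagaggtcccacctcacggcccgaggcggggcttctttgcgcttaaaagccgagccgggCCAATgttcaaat
ODC1, chr2:10448328-10448577, minus strand: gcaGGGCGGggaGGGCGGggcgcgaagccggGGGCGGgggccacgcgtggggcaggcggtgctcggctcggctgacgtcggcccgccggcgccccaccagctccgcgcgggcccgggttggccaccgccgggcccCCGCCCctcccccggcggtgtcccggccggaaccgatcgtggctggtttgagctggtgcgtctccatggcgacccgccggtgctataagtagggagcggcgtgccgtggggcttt
SRM, chr1:11060019-11060268, minus strand: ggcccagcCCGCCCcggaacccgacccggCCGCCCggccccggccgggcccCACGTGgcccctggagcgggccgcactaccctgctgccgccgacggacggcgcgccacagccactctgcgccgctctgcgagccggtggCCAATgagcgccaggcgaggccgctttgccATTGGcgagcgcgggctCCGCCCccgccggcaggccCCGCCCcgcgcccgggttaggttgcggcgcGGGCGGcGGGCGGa

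Windows of this kind were found for 6 of the 9 members. CCAAT stood on either strand in 4 of those 6 (SAT1, SRM, SMS and OAZ1), and in 32.0% of all 35116 windows of the same length. In SAT1 the matches began 79 and 13 bases before the start. GGGCGG stood in 5 of the 6 and in 42.6% of all windows, and SAT1 was the member without it. CACGTG stood in 1 of the 6, SRM, 199 bases before its start, and in 6.34% of all windows. None of the 6 windows held TATAAA (10.7% of all windows), TGACGTCA (1.65%) or TGACNNNGC, the core of the antioxidant response element (10.9%). Guanine and cytosine made up 66.4% of the SAT1 window, 78.8% of the ODC1 window and 82.0% of the SRM window. Such matches describe these letters only, and binding was not measured.

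SAT1 was several times higher in LNCaP cells treated with SEL120-34A and had overlapping arms in 22Rv1. In LNCaP, the DMSO libraries had 78.9, 73.3 and 54.5 CPM, and the SEL120-34A libraries 413, 290.0 and 243 CPM. The lowest treated library stood well above the highest untreated one, and the means were 68.9 ± 12.8 and 315 ± 88.0 CPM (SD, n = 3). These levels rest on 28 to 56 counts per untreated library and 106 to 115 counts per treated library. The fitted log2 change was 2.20 ± 0.21 (SE), or 4.60-fold, with a 95% interval from 1.78 to 2.63.

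In 22Rv1, the DMSO libraries had 49.1, 18.7 and 22.7 CPM of SAT1, and the SEL120-34A libraries 33.1, 34.3 and 34.2 CPM. All treated values fell inside the untreated range, and the untreated spread came mostly from 1 library at 49.1 CPM. Mean levels were 30.2 ± 16.5 and 33.9 ± 0.70 CPM (SD, n = 3), on 8 to 25 counts per library. The fitted log2 change was 0.23 ± 0.37 (SE), and its 95% interval ran from −0.52 to 0.99.

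Set against each other, the SAT1 response in LNCaP exceeded that in 22Rv1 by 1.97 ± 0.42 on the log2 scale, with a 95% interval from 1.11 to 2.82. Without 22Rv1 DMSO replicate 1, the library at 49.1 CPM, the 22Rv1 change was 0.66 and the difference 1.54. In PC3, SAT1 stood at 210.1 CPM (193 counts) with DMSO and 370.0 CPM (211 counts) with SEL120-34A. That is a log2 ratio of 0.82, with a 95% counting interval from 0.53 to 1.11, and it compares a pair of libraries with no replicate check.

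**Figure D1:**
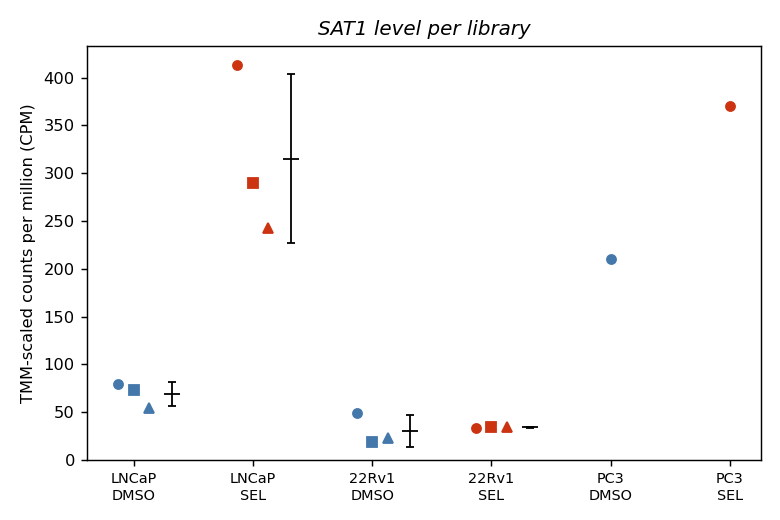
SAT1 level (CPM, vertical axis) in each library of LNCaP, 22Rv1 and PC3, with DMSO in blue and SEL120-34A in red; symbols give the replicate number and black bars the mean ± SD of 3 libraries. The 3 treated LNCaP libraries (243 to 413 CPM) lay above the 3 untreated ones (54.5 to 78.9 CPM), while the treated 22Rv1 libraries (33.1 to 34.3 CPM) lay inside the untreated range (18.7 to 49.1 CPM).

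Mitochondrial shares and luminal marker levels were set beside the SAT1 values. Mitochondrial genes took 13.9% to 17.3% of the counts in untreated LNCaP libraries and 16.5% to 23.3% in treated ones, with overlap. The 4 luminal markers summed to between 1903 and 2236 CPM in untreated LNCaP libraries and between 854 and 971 CPM in treated ones. The markers did not range alike over the LNCaP libraries of both arms. KLK3 ran from 238 to 1369 CPM and KLK2 from 160 to 534 CPM. HOXB13 ran from 275 to 398 CPM and SLC45A3 from 44.4 to 59.2 CPM, so the sum mostly followed the first pair. In 22Rv1, mitochondrial genes took 7.60% to 9.82% without and 9.52% to 13.1% with treatment, and the luminal sums overlapped (278 to 292 against 203 to 313 CPM). Their part in the SAT1 result was not tested. In bulk RNA, fewer cells of one kind and less RNA per cell cannot be told apart.

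Among the biosynthetic genes, ODC1 and SRM had lower mean levels with SEL120-34A in both LNCaP and 22Rv1, SMS had a lower mean in LNCaP, and AMD1 had a higher mean in both lines. No response of a biosynthetic gene in 22Rv1 passed edgeR's quasi-likelihood F-test over all 7086 genes, of which 5.7% passed. ODC1, the first enzyme of the pathway, came closest.

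ODC1 in LNCaP had 666, 827 and 877 CPM with DMSO and 534, 491 and 674 CPM with SEL120-34A. Only the highest treated library reached the lowest untreated one, so that the arms overlapped narrowly, and the log2 change was −0.44 ± 0.15. In 22Rv1, ODC1 had 799, 693 and 922 CPM with DMSO and 598, 412 and 707 CPM with SEL120-34A. Here too the arms overlapped in 1 treated library, and the means were 805 ± 115 and 572 ± 149 CPM (SD, n = 3). The 22Rv1 change of −0.46 ± 0.15 missed the threshold (edgeR, adjusted p = 0.0581). It passed in 12 of the 22 alternative fits, with adjusted p between 0.0107 and 0.393 over all of them and a log2 change between −0.63 and −0.29. In PC3, ODC1 had 669.6 and 703 CPM, a log2 ratio of 0.07 with a counting interval from −0.11 to 0.25.

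SMS, which makes spermine, had 311, 348 and 349.5 CPM in untreated LNCaP and 214, 228 and 270.3 CPM in treated LNCaP. All treated libraries lay below all untreated ones, with a log2 change of −0.45 ± 0.15. In 22Rv1 the values were 338, 247 and 278 CPM with DMSO and 270.1, 262 and 291 CPM with SEL120-34A. These overlapped fully, and the log2 change of −0.05 ± 0.15 did not pass the test (edgeR, adjusted p = 0.907). The difference of the SMS responses, LNCaP minus 22Rv1, was −0.41 ± 0.21 with a 95% interval from −0.83 to 0.02, which includes 0. PC3 had 775 CPM untreated and 939.9 CPM treated, a log2 ratio of 0.28 (counting interval 0.11 to 0.44) in the opposite direction to LNCaP.

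SRM, which makes spermidine, had 565, 565 and 570.4 CPM with DMSO in LNCaP and 519, 482 and 427 CPM with SEL120-34A. The untreated libraries hardly differed from one another, and all treated ones lay below them (log2 change −0.23 ± 0.13). In 22Rv1 it had 377, 387 and 478 CPM with DMSO and 353, 352 and 339 CPM with SEL120-34A. The arms again did not overlap, but the log2 change of −0.25 ± 0.14 did not pass the test (edgeR, adjusted p = 0.338). Arms without overlap were seen for 3 of the 7 tested members in LNCaP (SAT1, SRM and SMS), against 19.4% of all tested genes. SAT1 was chosen by its LNCaP response, so nothing is read from its place in this count. In 22Rv1, arms without overlap were seen for 1 of the 7 (SRM), against 23% of all tested genes. The 22Rv1 response of SAT1 also entered the choice, so its place in that count is not read either. In PC3 the log2 ratio was 0.31 (counting interval 0.09 to 0.52), with 435 and 538 CPM.

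AMD1 had 1107, 1346 and 1372 CPM with DMSO in LNCaP and 1318, 1372 and 1671 CPM with SEL120-34A. The ranges overlapped, with a log2 change of 0.23 ± 0.12. In 22Rv1 the values were 471, 419 and 408 CPM without and 507, 403 and 559 CPM with treatment, which also overlapped. The log2 change there was 0.21 ± 0.14 (edgeR, adjusted p = 0.452), and in PC3 the log2 ratio was −0.04 (196 and 191 CPM).

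**Figure D2:**
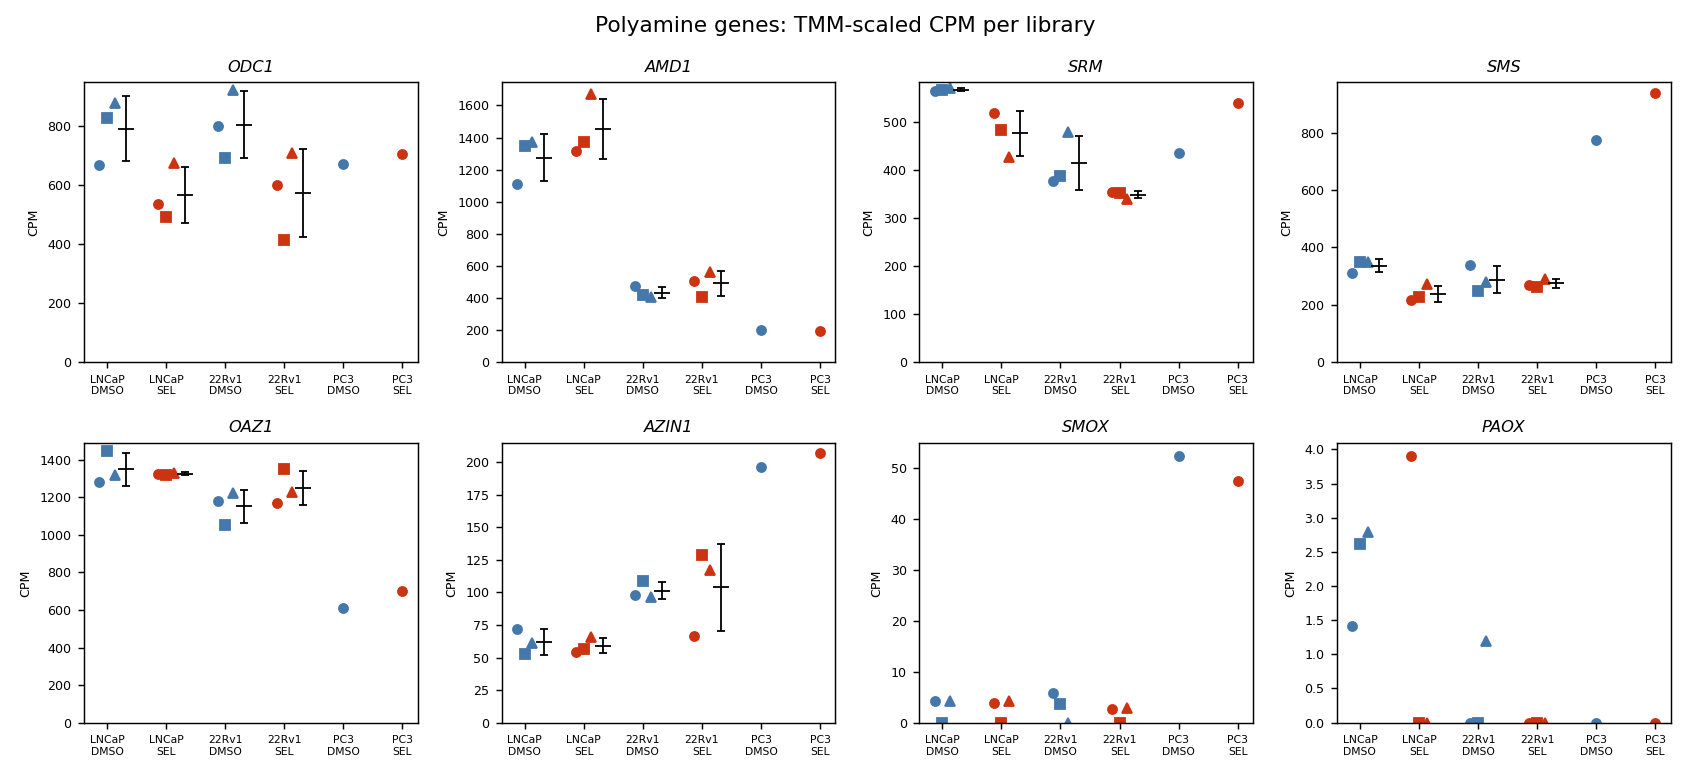
Level of each of the 8 members other than SAT1 (CPM, vertical axes starting at 0, each panel with its own scale) in every library, by line and arm; blue is DMSO, red is SEL120-34A, and black bars give the mean ± SD of 3 libraries where counts allowed it. In the SMS and SRM panels all treated LNCaP libraries lie below the untreated ones, AMD1 is higher in LNCaP than in 22Rv1 in both arms, and SMOX stands clear of 0 in PC3 (52.3 and 47.3 CPM).

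The oxidases were barely counted. SMOX had 0 to 3 counts in each LNCaP and 22Rv1 library, and 48 and 27 counts in the PC3 libraries (52.3 and 47.3 CPM). PC3 was thus the line in which it was measured, with a log2 ratio of −0.14 and a counting interval from −0.88 to 0.57. PAOX had 6 counts in all 14 libraries together, at most 2 in any library and 0 in PC3. Neither gene passed the filter on low counts in the fit of LNCaP and 22Rv1, so that their responses could not be assessed and no fold change is given.

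The arms of both regulators overlapped in LNCaP and in 22Rv1. OAZ1 had 1283, 1448 and 1317 CPM in untreated LNCaP and 1326, 1317 and 1333 CPM in treated LNCaP, a log2 change of 0.01 ± 0.12. In 22Rv1 it had 1182, 1056 and 1224 CPM without and 1171, 1352 and 1229 CPM with treatment. The treated libraries lay among or near the untreated ones in both lines, and the 22Rv1 change of 0.13 ± 0.12 did not pass the test (edgeR, adjusted p = 0.621, 95% interval −0.11 to 0.36). In PC3 OAZ1 stood at 612 and 701 CPM, a log2 ratio of 0.20 with a counting interval from 0.01 to 0.38.

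AZIN1 had 71.8, 52.4 and 61.5 CPM with DMSO and 54.6, 56.9 and 65.5 CPM with SEL120-34A in LNCaP, with a log2 change of −0.05 ± 0.25. In 22Rv1 it had 98.2, 108.6 and 96.6 CPM with DMSO and 66.1, 128.8 and 116.9 CPM with SEL120-34A. Treated 22Rv1 libraries lay on both sides of the untreated ones, and the log2 change was 0.02 ± 0.22 (edgeR, adjusted p = 0.975, 95% interval −0.41 to 0.46). PC3 had 196 and 207 CPM, a log2 ratio of 0.08.

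Of the 9 members, 7 passed the filter on low counts. In LNCaP, 1 of the 7, SAT1, passed an adjusted p of 0.05, against 2.77% of all tested genes. That comparison chose SAT1, and nothing is read from this count. The median log2 change of the 7 was −0.05, beside 0.00 over all tested genes. In 22Rv1, whose SAT1 response also entered the choice, 0 of the 7 passed with edgeR and 0 with DESeq2. That SAT1 is among those not passing follows in part from the choice, and nothing is read from it. At an unadjusted p under 0.05, 1 of the 7 passed (ODC1), and so did 1351 of the 7086 genes. The median log2 change in 22Rv1 was 0.02, beside 0.00 over all tested genes. The difference between the lines, which also chose SAT1, passed for 0.734% of all tested genes and for SAT1 among the members, and nothing is read from that. It no longer passed for SAT1 without 22Rv1 DMSO replicate 1 (difference 1.54) or with limma-trend. In PC3, 1 of the 8 members with at least 10 counts in both libraries, SAT1, was higher by more than 1.5-fold and 0 were lower, against 10.1% and 6.16% of 7089 genes.

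**Figure D3:**
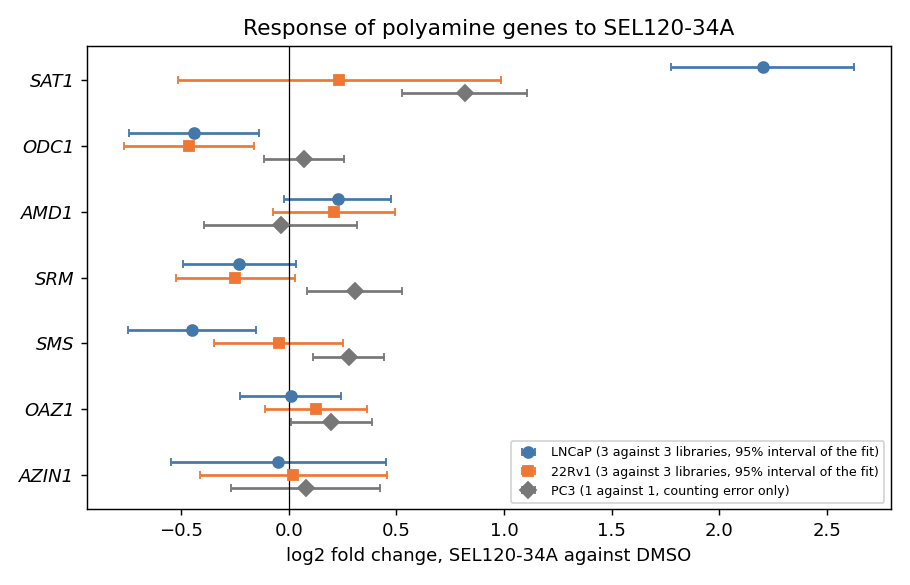
Response to SEL120-34A (log2 change against DMSO, horizontal axis) of the 7 tested members, with blue circles for LNCaP, orange squares for 22Rv1 and grey diamonds for PC3; bars are 95% intervals, which for PC3 cover counting error only. SAT1 in LNCaP (2.20) lies far to the right of the other members, whose LNCaP changes run from −0.45 (SMS) to 0.23 (AMD1).

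Untreated LNCaP and 22Rv1 cells differed in several members, in a comparison that did not choose SAT1 but shares its DMSO libraries with the responses above. In the DMSO libraries, 4 of the 7 tested members passed the test, with AMD1, SAT1 and SRM higher in LNCaP and AZIN1 higher in 22Rv1. Over all tested genes 49% passed, and this share is near that of all genes. The choice of SAT1 used these DMSO libraries, so nothing is read from its place in this count. The median log2 difference of the 7, LNCaP minus 22Rv1, was 0.23, beside −0.03 over all tested genes.

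AMD1 differed most of the members, with 1275 ± 146 CPM in untreated LNCaP and 433 ± 33.7 CPM in untreated 22Rv1 (SD, n = 3). The libraries of the lines did not overlap, and the log2 difference was 1.56 ± 0.13, or 2.96-fold (edgeR, adjusted p = 3.00e-13). SAT1 was 2.35-fold higher in untreated LNCaP (log2 difference 1.23 ± 0.28), given as a description with no test. Its lowest LNCaP library, at 54.5 CPM, lay above its highest 22Rv1 library, at 49.1 CPM. SRM was 1.36-fold higher in LNCaP, at 567 ± 3.06 against 414 ± 55.7 CPM (edgeR, adjusted p = 0.00302). With library totals in place of TMM the median over all genes shifted by −0.24, and the SRM difference was 0.23 and no longer passed.

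AZIN1 was lower in LNCaP, with 61.9 ± 9.75 CPM against 101 ± 6.50 CPM in 22Rv1, a log2 difference of −0.67 ± 0.21 (edgeR, adjusted p = 0.00684). The libraries did not overlap. ODC1 did not pass, with a log2 difference of −0.03 and a 95% interval from −0.32 to 0.26 (edgeR, adjusted p = 0.882). SMS (0.23, adjusted p = 0.162) and OAZ1 (0.23, adjusted p = 0.099) also missed the threshold in edgeR, although the OAZ1 libraries of the lines did not overlap. Lines without overlap were seen for 5 of the 7 members and for 56.4% of all tested genes.

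The order of untreated lines differed from member to member. For SAT1, PC3 stood highest at 210.1 CPM, above LNCaP at 68.9 and 22Rv1 at 30.2 CPM, and PC3 was also highest for SMS (775 CPM against 336 and 288) and AZIN1 (196 CPM). For AMD1 it was lowest, at 196 CPM, and for OAZ1 it was lowest as well, at 612 CPM against 1349 in LNCaP and 1154 in 22Rv1. ODC1 was near the same level in all 3 lines (790, 805 and 669.6 CPM in LNCaP, 22Rv1 and PC3). PC3 values come from 1 untreated library and were not tested against the other lines.

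**Figure D4:**
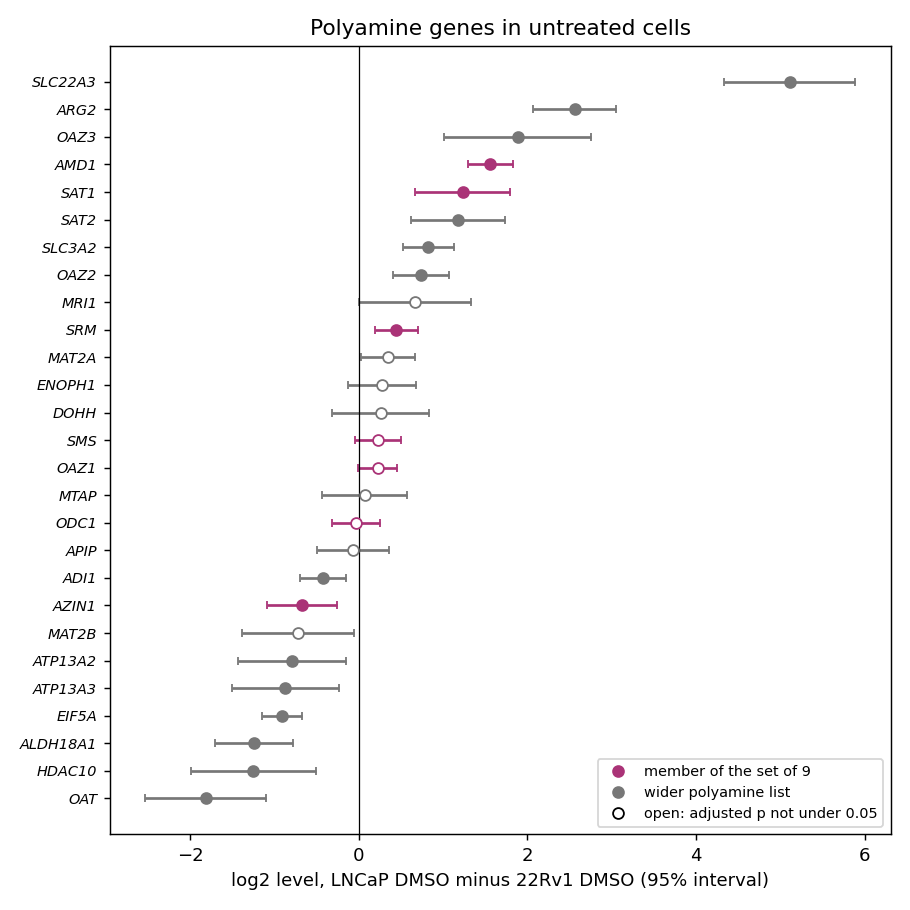
Difference between untreated LNCaP and 22Rv1 (log2, horizontal axis, positive where LNCaP was higher) for the tested members in purple and the tested genes of the wider polyamine list in grey, with 95% intervals; open symbols did not pass an adjusted p of 0.05, and 7 grey genes passed the filter on low counts in 1 line only. AMD1 (1.56) and SAT1 (1.23) lie to the right among the members and AZIN1 (−0.67) to the left.

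The rest of the pathway was read from a list of 31 further genes covering arginine and ornithine supply, antizymes, S-adenosylmethionine supply and methylthioadenosine salvage, acetylation, transport and the hypusine modification of eIF5A, which uses spermidine. Of these, 20 were tested, 10 had too few counts and 1 (SATL1) had no counts. In LNCaP, 0 of the 20 passed the test with edgeR and 0 with DESeq2. At an unadjusted p under 0.05, 4 of the 20 passed, as did 956 of all 7086 genes, and the median log2 change was −0.03. In 22Rv1, 1 of the 20 passed, against 5.7% of all tested genes, and the median was −0.03. That count is near the share of all genes, and nothing is read from it. In the difference between the lines 0 of the 20 passed with edgeR and 0 with DESeq2, and at an unadjusted p under 0.05 3 of the 20 and 811 of all genes passed.

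The gene that passed in 22Rv1 was ADI1, a dioxygenase of the salvage route that recycles the methylthioadenosine left by SRM and SMS. Its level fell from 507, 361 and 469.9 CPM to 239.8, 253 and 297 CPM, without overlap between the arms, as for 23% of all tested genes. The log2 change was −0.75 ± 0.15 (edgeR, adjusted p = 9.38e-04), and it passed in all 22 alternative fits. In LNCaP, ADI1 had 321, 366 and 319 CPM with DMSO and 230.0, 219.6 and 264 CPM with SEL120-34A, a log2 change of −0.45 ± 0.15 that did not pass (edgeR, adjusted p = 0.117). The LNCaP arms did not overlap either, as for 19.4% of all tested genes. The difference between the lines did not pass either (edgeR, adjusted p = 0.626).

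SAT2, a relative of SAT1, was singled out after its values were seen. In LNCaP it had 104, 113 and 67.1 CPM with DMSO and 172, 163 and 122 CPM with SEL120-34A. All treated libraries lay above all untreated ones, but the log2 change of 0.72 ± 0.25 did not pass (edgeR, adjusted p = 0.126). Arms without overlap were seen for 19.4% of all tested genes in LNCaP. It passed in 2 of the 21 alternative fits, with a replicate block and without 22Rv1 DMSO replicate 2, and the adjusted p ran from 0.0217 to 0.580 over all 21. In 22Rv1 the SAT2 arms overlapped, and the log2 change of 0.36 ± 0.35 did not pass (edgeR, adjusted p = 0.633). In PC3, SAT2 had 82.7 CPM untreated and 49.1 CPM treated, opposite in direction to SAT1 there. That is a log2 ratio of −0.75 with a counting interval from −1.43 to −0.11.

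Between the untreated lines, 13 of the 20 passed, against 49% of all tested genes, with 6 higher in LNCaP and 7 higher in 22Rv1. A gene counted in a single line can enter the fit through that line alone and is then more likely to differ. The count is not read as support for that reason. In the libraries of each line taken alone, 13 of the 20 passed the filter on low counts in both lines. Of these 13, 8 differed between the untreated lines (3 higher in LNCaP and 5 higher in 22Rv1), against 44.3% of the 4917 genes that passed the filter in both. All 7 tested members passed it in both lines.

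Of the 6 genes with the smallest adjusted p, 3 passed the filter in both lines. SLC3A2, the heavy chain of amino acid transporters, was 1.78-fold higher in LNCaP (edgeR, adjusted p = 1.11e-05). EIF5A, the protein that receives hypusine, was 1.87-fold higher in 22Rv1 (edgeR, adjusted p = 2.91e-08). ALDH18A1, which makes a precursor of proline and ornithine, was 2.37-fold higher in 22Rv1 (edgeR, adjusted p = 1.93e-05). These 3 differences passed in every alternative fit in which the gene was tested.

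The other 3 passed the filter in 1 line only, so that their levels are given with no test. SLC22A3, a transporter of organic cations, had 83, 38 and 133 counts in untreated LNCaP libraries and 2, 4 and 1 counts in untreated 22Rv1 libraries. ARG2, the arginase that makes ornithine, had 103, 120.4 and 103 CPM in LNCaP and 19.6, 14.97 and 19.1 CPM in 22Rv1. OAT, which interconverts ornithine and a proline precursor, had 9.86, 13.1 and 15.4 CPM in LNCaP and 43.2, 43.05 and 48.9 CPM in 22Rv1. The libraries of the lines did not overlap for any of these 3 genes, nor for 56.4% of all tested genes. These 3 genes were picked by their adjusted p in this comparison, so nothing is read from the lack of overlap.

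Over the 12 LNCaP and 22Rv1 libraries, the genes whose log2 level followed SAT1 most closely among 3845 genes were TMEM134 (Pearson r = 0.97), TPRA1 (0.94), PIR (0.94), SEC11C (0.93) and UQCRQ (0.93). SEC11C, a subunit of the signal peptidase, stood at 564 ± 121 CPM without and 1628 ± 366 CPM with SEL120-34A in LNCaP, and at 400.3 ± 12.9 and 561 ± 58.1 CPM in 22Rv1 (SD, n = 3). Over all 14 libraries, 1 of the 5 (PIR, r = 0.94) stayed among the first 5. Among the members, r with SAT1 was 0.82 for AMD1, 0.56 for OAZ1, 0.44 for SRM, −0.36 for ODC1, −0.40 for SMS and −0.70 for AZIN1. The libraries share 4 group means and differ in depth, and r is given as a description.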

How the data were processed

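LNCaP, 22Rv1 and PC3 cells were treated and sequenced by BRB-seq as described in the report. By their methods and labels, the authors used STARsolo to align and count reads against GRCh38.p13 (GENCODE release 43). They deposited raw counts per gene, and log2 CPM values for 9638 genes. Versions, strand setting and collapse of molecular identifiers are not given in the sources used here.

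Deposited counts were analysed with edgeR 4.0.16 in R 4.3.3 (TMM, low-count filter, quasi-likelihood F-test). The 12 LNCaP and 22Rv1 libraries entered a single model with 4 group means, 8 residual degrees of freedom and a common biological coefficient of variation of 11.1%. P-values were adjusted over 7086 genes (Benjamini-Hochberg), with a threshold of 0.05, and the share of all genes called at it is set beside each count of members. The log2 values deposited by the authors, DESeq2 1.42.0 and limma 3.58.1 served as alternatives. In PC3 only ratios with exact counting intervals were computed. Data were simulated with changes of 1.5 on the log2 scale, placed in 192 and 183 of 6537 genes. The model recovered 91.7% of those in LNCaP and 81.4% of those in 22Rv1, and 4.86% and 6.88% of its calls were false. For the difference between the lines it recovered 65.9%, and 5.84% of its calls were false. The simulation gave a gene the same untreated mean in both lines, so genes low in a single line were not represented.

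No libraries were duplicates: within groups, chi-square per degree of freedom was 1.43 to 3.02, above counting error. Overlapping genes had at most 23 counts in all (MAILR, opposite AZIN1), and pseudogene rows of the members at most 3. Members and gene lists were chosen with earlier results of these data known. All members are named. Of the wider list, genes passing in a comparison are named (at most 6 per comparison, by smallest adjusted p), as are the 5 genes most like SAT1. Alternatives covered normalization, filters, the test, depth, fitting a line alone, adding PC3, a block for replicate number and leaving out each library. Some markers of the luminal list are not reported here.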

Additional observations from a re-analysis of the deposited data

Results flagged for a closer look

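The SAT1 response to SEL120-34A differed between LNCaP and 22Rv1: the log2 change in LNCaP exceeded that in 22Rv1 by 1.97. This value described the pattern for which SAT1 was chosen, and it is not independent support for it. The SAT1 level was higher in 3 of 3 treated LNCaP libraries than in any untreated one, while all 3 treated 22Rv1 libraries lay inside the untreated range.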

How the results depend on the processing

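The 22Rv1 values of SAT1 rest on 8 to 25 counts per library, and SMOX and PAOX could not be assessed in LNCaP or 22Rv1. In LNCaP, 1 member passed in the reported fit, 2 with library totals (SMS added), without a filter or with a replicate block (ODC1 added), and 0 when at least 10 counts were required in every library, since SAT1 then dropped out. Leaving out 1 library gave 1 to 2. In the wider list 0 passed in LNCaP as reported, 1 with library totals (ADI1), 1 with the block (SAT2) and 0 to 1 with a library left out. In 22Rv1 0 members passed as reported. ODC1 made this 1 with library totals, no filter, at least 10 counts, the block, PC3 added or 22Rv1 fitted alone, and leaving out a library gave 0 to 1. For the difference between lines 1 member passed as reported, 0 with at least 10 counts (SAT1 dropped out), 0 with limma-trend, and 0 to 1 with a library left out. The 0 came without 22Rv1 DMSO replicate 1, where the SAT1 difference was 1.54. SAT1 was chosen by its LNCaP response and by this difference. The counts of members for LNCaP and for the difference only describe the fits, and lend SAT1 no support. The cause was not tested for the other changes. Between untreated lines the wider list gave 13 as reported and 4 with at least 10 counts, where fewer genes are tested. Of the 5 genes most like SAT1, 1 stayed with all 14 libraries.

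Several log2 values near 0 changed sign. In 22Rv1 these were SAT1 at −0.080 with thinned libraries, OAZ1 at −0.027 with library totals, and SMS, which ran from −0.15 to 0.044 with a library left out. AZIN1 in 22Rv1 was −0.13 with library totals, −0.040 without a filter, −0.061 with at least 10 counts, −0.013 with limma-trend, −0.32 with thinned libraries, −0.013 with 22Rv1 alone, and −0.12 to 0.29 with a library left out. ODC1 between untreated lines ran from −0.13 to 0.076 with a library left out. In LNCaP, OAZ1 changed sign in 8 of 22 alternative fits and AZIN1 in 1 of 22. For the difference between the lines, SRM changed sign in 6 of 21 fits, ODC1, AMD1 and AZIN1 in 5 each, and OAZ1 in 1. Over the 37 single-gene log2 values from the fits, 743 of 785 alternative values kept direction and side of the threshold or, where no test was given, moved by less than the SD between replicates.

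Library totals moved the median of all genes by −0.08 in LNCaP, −0.14 in 22Rv1 and −0.24 between untreated lines. Whether replicate numbers pair the samples could not be settled. Deviations of same-numbered libraries correlated at 0.17, −0.01 and 0.20 in LNCaP, and those of differently numbered ones at −0.24 to 0.07. In 22Rv1 same-numbered libraries correlated at −0.003, −0.02 and 0.04, and differently numbered ones at −0.09 to 0.08. The reported fit used no pairing, and the block for replicate number is among the alternatives.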
